A study of Mus musculus with 14 samples.

Results

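The genes examined are 59 neighbours of Nr5a2 on mouse chromosome 1, chosen by position within about 10 Mb on either side of it. The gene table of assembly GRCm38.p6 lists 322 genes besides Nr5a2 in that window, members included, and 148 are protein coding. A probe set with a single gene symbol measured 57 of the 59, and all 57 passed the filter on dim genes and were tested among 18010 genes. Arl8a and Etnk2 are not analysed here. A further 84 tested genes lie in the window outside the list. The list was drawn up with results of these data known.

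The material was whole jejunum from mice with wild-type LRH-1 (WT, 7 mice) or with LRH-1 K289R (7 mice), 1 Affymetrix array per mouse. The mice were 19 to 21 weeks old, ate freely and were killed at 7 am. K289R puts an arginine in place of a lysine of LRH-1, the nuclear receptor that Nr5a2 encodes. The labels state neither strain, sex, litter and cage nor the way the allele was made, and they do not say whether WT and K289R mice were littermates. They call the samples biological replicates of jejunum, while the title of the series speaks of hepatic LRH-1.

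LRH-1 binds DNA as a monomer at an extended nuclear receptor site, and SUMO, a small protein attached to lysines, is known to dampen its activity. In the gut it acts on crypt renewal, local glucocorticoid synthesis and bile acid handling. Genes close together on a chromosome are passed on together, so mice bred for an allele of Nr5a2 tend to inherit the alleles of its neighbours with it. In this design an action of the altered receptor on a neighbour and a difference in the neighbour's own inherited sequence cannot be told apart.

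The tissue label was checked on marker genes. All 9 enterocyte markers were measured, and their mean log2 intensity lay between 13.14 and 13.47 on every array. The ileal gene Fabp6 was above 8 on the log2 scale on 4 arrays. These were K289R replicates 2 (10.71) and 7 (9.91) and WT replicates 1 (12.52) and 6 (9.18). The lowest array was at 6.20 in WT and 6.09 in K289R. The mean of ileal markers was highest on WT replicate 1 (10.65) and K289R replicate 2 (10.31). The 4 arrays thus carried ileal signal under a jejunum label. Of 5 ileal markers tested, 2 were higher in K289R and 0 passed the threshold given below. Fabp6 differed by -0.16 (SE 0.994) and Fgf15 by 1.64 (SE 0.405, limma adjusted p = 0.227). Array medians ran from 168 to 174 intensity units, and with 7 arrays per genotype the standard error of a difference had a median of 0.067 over all genes. Differences are K289R minus WT in log2 intensity throughout, tested with limma over all 18010 genes with Benjamini-Hochberg adjustment and a threshold of 0.05.

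The 250 bases before the annotated start of 5 members are shown from RefSeq, build GRCm38.p6, 5′ to 3′ on the strand of the gene. They belong to the neighbours Elf3 and Rnpep, both lower in K289R, to Cdc73 and Glrx2, both higher, and to Tnnt2, the member with the lowest difference. Where a gene has several annotated starts, the outermost is shown. Capitals mark the core of the LRH-1 element, AAGGTCA or AAGGCCA on either strand.
Rnpep, chr1:135284085-135284334, strand -: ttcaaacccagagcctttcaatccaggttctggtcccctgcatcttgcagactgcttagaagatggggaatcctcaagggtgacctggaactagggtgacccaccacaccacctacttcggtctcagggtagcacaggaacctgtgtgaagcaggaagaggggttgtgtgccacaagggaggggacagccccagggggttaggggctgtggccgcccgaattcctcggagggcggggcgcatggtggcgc
Elf3, chr1:135258473-135258722, strand -: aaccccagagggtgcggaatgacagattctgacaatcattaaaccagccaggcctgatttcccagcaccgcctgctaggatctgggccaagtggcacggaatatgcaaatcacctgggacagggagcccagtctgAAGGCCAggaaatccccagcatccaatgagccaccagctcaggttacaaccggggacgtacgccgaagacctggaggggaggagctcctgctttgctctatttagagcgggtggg
Tnnt2, chr1:135836084-135836333, strand +: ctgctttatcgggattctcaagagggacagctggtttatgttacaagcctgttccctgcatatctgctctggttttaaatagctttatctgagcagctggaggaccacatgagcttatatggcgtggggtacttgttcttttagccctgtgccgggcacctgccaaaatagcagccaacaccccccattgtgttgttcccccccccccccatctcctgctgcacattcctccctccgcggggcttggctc
Cdc73, chr1:143702894-143703143, strand -: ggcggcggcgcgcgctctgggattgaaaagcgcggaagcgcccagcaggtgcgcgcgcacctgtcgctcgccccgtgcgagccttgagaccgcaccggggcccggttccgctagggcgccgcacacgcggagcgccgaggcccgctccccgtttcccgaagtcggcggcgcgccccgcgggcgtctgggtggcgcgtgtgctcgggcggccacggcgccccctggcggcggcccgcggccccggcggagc
Glrx2, chr1:143739099-143739348, strand +: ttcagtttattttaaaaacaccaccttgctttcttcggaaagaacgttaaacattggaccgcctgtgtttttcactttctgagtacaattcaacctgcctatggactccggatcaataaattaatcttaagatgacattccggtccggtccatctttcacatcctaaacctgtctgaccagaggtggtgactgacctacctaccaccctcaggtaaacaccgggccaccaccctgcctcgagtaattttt

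The shortest distance between 2 of these starts is that of Elf3 and Rnpep, which are read on the same strand, whereas Cdc73 and Glrx2 are read away from each other. The Elf3 stretch holds AAGGCCA, beginning 115 bases before the start, and the other 4 stretches hold neither form of the core. Over the list, 54 members had such a stretch for at least 1 start, and 5 of them (9.26%) held the core: Elf3, Syt2, Plekha6, Mdm4 and Nfasc. Over all 27025 genes with a stretch the share was 10.3%. The longer form, CAAGGTCA or CAAGGCCA, which contains the core, was found in Syt2 and Nfasc, 3.7% of the 54 against 3.76% of all genes. A TATA box (TATAAA, on the strand of the gene) was found in Dennd1b alone, 1.85% against 8.94%. The shares are descriptions of these windows and not of binding. The Cdc73 stretch stands apart in composition, with 80.4% G and C and 47 CG pairs, where the median over 32851 stretches is 52.4% and 6. Those of Rnpep, Elf3, Tnnt2 and Glrx2 have 60.4%, 57.2%, 54% and 44.4% G and C.

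Nr5a2 itself, the point around which the list was drawn, was at a log2 intensity of 10.06 to 10.60 on WT arrays (median 10.36) and 9.83 to 10.39 on K289R arrays (median 10.25). The genotypes overlapped, with 5 arrays of each inside the range of the other. The difference was -0.14 (SE 0.092, 95% interval -0.33 to 0.06), with an adjusted p of 0.685 by limma. An exact permutation test over 3432 splits, 2-sided, gave p = 0.201, where the smallest possible p is 0.000583. No transcript here checks the genotype labels.

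Of the 57 tested neighbours 4 passed the threshold, and 2 rose (Cdc73 and Glrx2) while 2 fell (Rnpep and Tnnt2). Over all genes tested 8 passed, or 0.0444%, of which 0.0167% were higher and 0.0278% lower. At an unadjusted p under 0.001 there were 12 members, 8 higher and 4 lower, against 0.405% of all genes (0.255% higher and 0.15% lower). Of the 8 higher, Kcnt2 passed the filter on dim genes only through its K289R arrays. At an unadjusted p under 0.05 there were 17, 11 higher and 6 lower, against 8.48% of all genes (4.43% higher and 4.05% lower). No overlap between WT and K289R arrays was found for 7 members, Rnpep, Elf3, Tnnt2, Rabif, Ddx59, Cdc73 and Glrx2, against 0.167% of all genes. The list was chosen with these p values known and takes in every gene of the window with a p under 0.001, so its counts are no independent measure of the neighbourhood. Over the whole window, 12 of 141 tested genes had such a p.

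**Figure D1:**
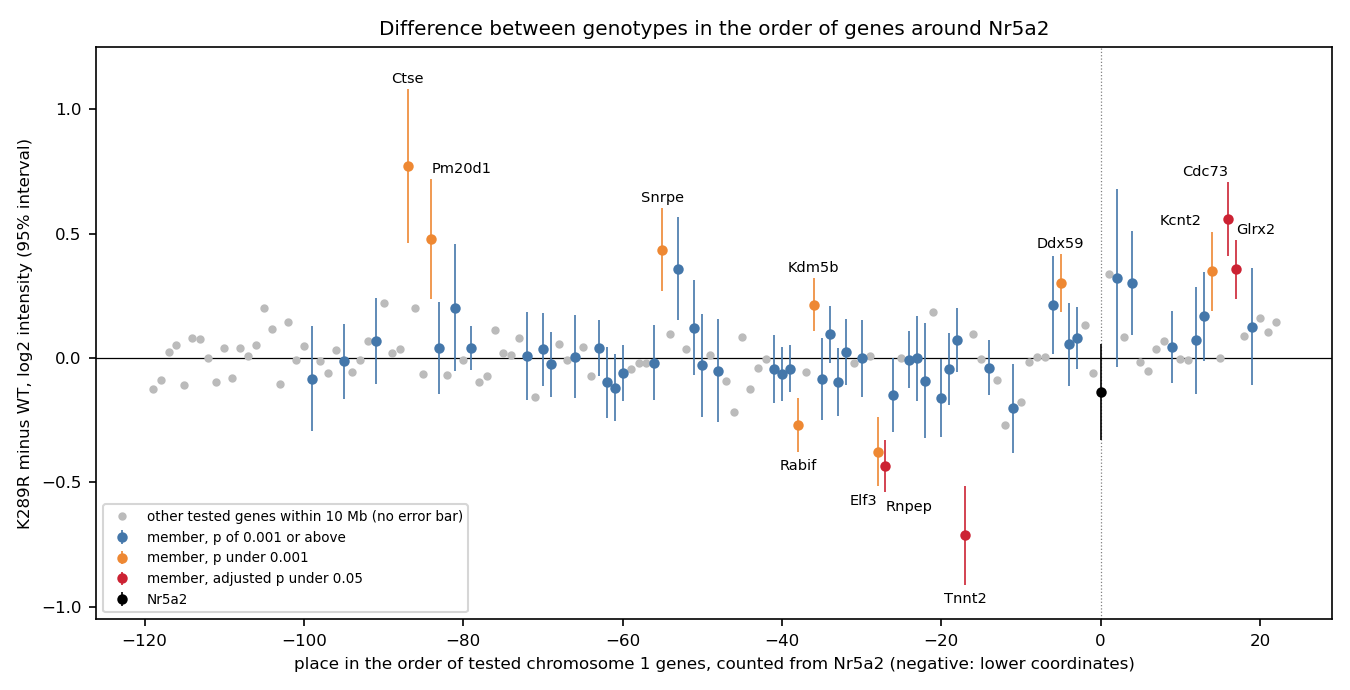
Difference between genotypes (K289R minus WT, log2 intensity) of the tested genes within 10 Mb of Nr5a2, placed by their order on the chromosome, with 95% intervals for the 57 members and Nr5a2 and grey points without intervals for the other 84 genes. Tnnt2, Rnpep, Elf3 and Rabif lie below 0 on the side of lower coordinates, Ctse, Pm20d1, Snrpe, Kdm5b and Ddx59 above 0 on the same side, and Kcnt2, Cdc73 and Glrx2 above 0 on the other.

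Position along the chromosome was described next. In the order of tested genes by their midpoints, 48 measured members lie on the side of lower coordinates, out to Pigr at 99 places, and 9 on the other, out to Uchl5 at 19 places. All 9 on the side of higher coordinates were higher in K289R, with a median of 0.30, and 2 of them passed. On the side of lower coordinates 21 were higher and 27 lower, with a median of -0.01. Over all genes tested 48% were higher. The other 13 tested genes on the side of higher coordinates were higher in 9 cases and lower in 4, with a median of 0.069 and none past the threshold. The list was chosen with results of these data known, so the signs, medians and calls of members and other genes are no independent measure of either side. Kcnt2, among the 9, passed the filter on dim genes only through its K289R arrays. Whether the sides differ was not tested. Of the 10 tested genes nearest to Nr5a2 on either side, 7 were higher on the lower side and 7 on the higher side, and Ddx59 was the only one among them with a p under 0.001.

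The genes directly beside the 12 members were compared with them. Of the 12 members with a p under 0.001, 4 had a directly adjacent tested gene with such a p, and these were the pairs Elf3 with Rnpep and Cdc73 with Glrx2, each with like signs. The other 8 had none. The 18 other genes adjacent to the 12 had a median size of difference of 0.068, and 16 of them differed by 0.2 or less, counted without sign. Adjacent genes with a p under 0.001 are left out of the 18, so small differences follow in part from that choice. Over all genes tested the median size was 0.057, and 5.11% differed by more than 0.2. Between Kcnt2 and Cdc73 stands B3galt2, a galactosyltransferase gene, at 0.00055 (SE 0.091). Tnnt2 is flanked by Lad1 at 0.07 (SE 0.061) and Pkp1, a desmosomal plakophilin, at 0.09 (SE 0.088). Snrpe is flanked by Sox13 at -0.02 (SE 0.071) and Lax1 at 0.10 (SE 0.107). Kdm5b and Rabif are separated by Mgat4e alone and go opposite ways.

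Beginning with the members for peptide, amino acid and lipid handling, 5 of 6 were measured, 1 fell and 4 did not pass. Rnpep encodes aminopeptidase B, which trims basic residues from the start of peptides. Its log2 intensity ran from 11.40 to 11.56 in WT (median 11.47) and from 10.92 to 11.15 in K289R (median 11.01). The lowest WT array was thus above the highest K289R array. Rnpep fell by 0.44 (SE 0.050), a fold of 0.739, with the lowest p of all genes tested (limma adjusted p = 0.00190). The means were 11.47 ± 0.05 (SD, n = 7) and 11.03 ± 0.10 (SD, n = 7).

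Pm20d1, a secreted enzyme that joins fatty acids to amino acids, was between 10.47 and 11.22 in WT (median 10.80) and between 11.13 and 11.45 in K289R (median 11.31). WT arrays were spread over a wide range, with replicates 3, 4 and 5 between 11.07 and 11.22 and the other 4 at or below 10.80, and K289R arrays were close together. Only WT replicates 4 and 5 and K289R replicate 3 lay inside the range of the other genotype. The difference was 0.48 (SE 0.114, limma adjusted p = 0.178). Adipor1, a receptor for adiponectin, was at -0.06 (SE 0.052), the lipid kinase gene Pik3c2b at -0.10 (SE 0.068) and Cyb5r1, a cytochrome b5 reductase gene, at -0.04 (SE 0.065).

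Among the members for muscle contraction, Tnnt2 fell and Tnni1 and Ppp1r12b did not pass. Tnnt2 encodes the tropomyosin-binding troponin subunit known from heart muscle. It was between 8.32 and 8.66 in WT (median 8.46) and between 7.43 and 8.07 in K289R (median 7.78). No array of either genotype reached the range of the other, and K289R arrays were spread more widely, with an SD of 0.24 against 0.13. Tnnt2 fell by 0.71 (SE 0.094, 95% interval -0.91 to -0.51), a fold of 0.610 (limma adjusted p = 0.00497). In whole tissue, fewer cells of a type and less RNA per cell cannot be told apart.

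Smooth muscle markers went the other way. All 9 were higher in K289R, 6 with an unadjusted p under 0.05 and 0 past the threshold, with summed intensities of 20774 to 23287 in WT and 19848 to 28741 in K289R. With their mean as a covariate Tnnt2 was at -0.72 (SE 0.123, limma adjusted p = 0.0562), a similar difference that no longer passed. Of 9 markers of heart and skeletal muscle 4 of 8 tested were higher, and the list mean lay between 6.78 and 7.03 on all arrays, near the filter at 6.25. Tnni1, the troponin I gene of slow skeletal fibres, lies 2 places further from Nr5a2 than Tnnt2 and was at -0.05 (SE 0.069). Ppp1r12b, a subunit of myosin phosphatase, was at 9.31 to 9.51 in WT (median 9.40) and 9.40 to 9.68 in K289R (median 9.49), with overlapping arrays. Its difference was 0.10 (SE 0.054), and 0.01 (SE 0.061) with the smooth muscle covariate.

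In the group of transcription and chromatin 1 of 8 members rose, 0 fell and 7 did not pass. Cdc73, a subunit of the PAF1 complex that travels with RNA polymerase, was between 10.18 and 10.30 in WT (median 10.23) and between 10.62 and 11.15 in K289R (median 10.74). The WT arrays lay within a narrow band, with an SD of 0.05 against 0.19, and all K289R arrays were above it. Cdc73 rose by 0.56 (SE 0.070), a fold of 1.47 (limma adjusted p = 0.00389). The highest array was K289R replicate 3, and without it the difference was 0.50 (SE 0.050).

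Kdm5b, which removes methyl groups from lysine 4 of histone H3, was between 9.48 and 9.62 in WT (median 9.59) and between 9.61 and 9.91 in K289R (median 9.80). The ranges met at K289R replicate 7. Its difference was 0.21 (SE 0.051, limma adjusted p = 0.173). The other 6 were Rbbp5, a subunit of histone methyltransferase complexes, the zinc finger genes Zfp281 and Zbtb41, the ETS gene Elk4, Sox13 and Nucks1, with differences from -0.03 (Rbbp5) to 0.20 (Nucks1). Nucks1, a chromatin protein gene, was at 11.05 on K289R replicate 3 and at 9.86 on K289R replicate 5, both outside the WT range.

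Glrx2 rose, alone among 4 members grouped loosely under mitochondria, redox and protein turnover. It encodes a glutaredoxin of the mitochondrion, was between 8.44 and 8.68 in WT (median 8.55) and between 8.79 and 9.11 in K289R (median 8.90), and had the same SD of 0.097 in both. No array of either genotype reached the other. Glrx2 rose by 0.36 (SE 0.056), a fold of 1.28 (limma adjusted p = 0.0260). The call was lost in fits without WT replicate 3, 4, 6 or 7 or K289R replicate 1 or 4 (adjusted p between 0.0542 and 0.0694), with the B cell marker mean as a covariate (0.0565), without the 4 arrays with Fabp6 signal (0.125) and with the replicate number as a block (0.133). In these fits the difference stayed between 0.34 and 0.39.

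Uchl5, a deubiquitinase bound to the proteasome, lies 2 places beyond Glrx2 and was at 9.48 to 9.76 in WT (median 9.67) and 9.51 to 10.47 in K289R (median 9.69). Its difference was 0.13 (SE 0.111). K289R replicate 3 was the highest array, at 10.47, and without it the difference was 0.0099 (SE 0.055). With the smooth muscle covariate it was 0.37 (SE 0.104, limma adjusted p = 0.167), again without passing. Timm17a, of the mitochondrial import channel and next to Rnpep, was at -0.15 (SE 0.071, limma adjusted p = 0.596). Ipo9, a nuclear import receptor, was at -0.0021 (SE 0.080).

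**Figure D2:**
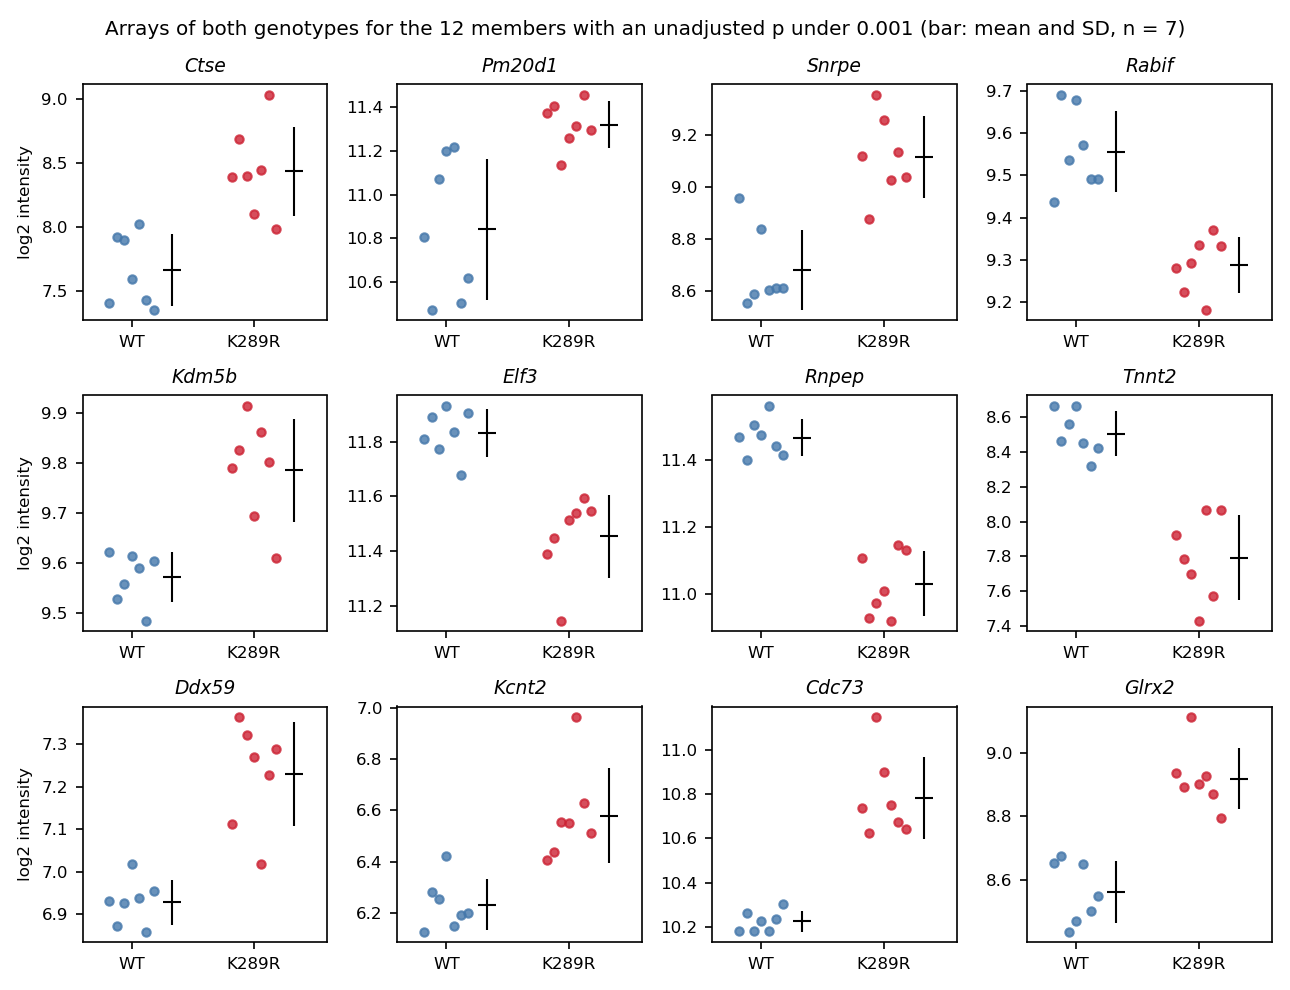
Log2 intensity of the 12 members with an unadjusted p under 0.001 on each WT and K289R array, in chromosome order, with the mean and SD of 7 arrays as a bar and an own scale in each panel. The genotypes are apart for Rabif, Elf3, Rnpep, Tnnt2, Ddx59, Cdc73 and Glrx2 and overlap in the other 5.

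Members for epithelial defence and differentiation came next, 6 in all, of which none passed, while 2 had an unadjusted p under 0.05. Elf3 encodes an epithelial ETS factor needed for enterocyte differentiation. It was between 11.68 and 11.93 in WT (median 11.83) and between 11.15 and 11.59 in K289R (median 11.51). The ranges did not overlap, and K289R replicate 3 was the lowest. The difference of -0.38 (SE 0.066) missed the threshold narrowly (limma adjusted p = 0.0507), and it passed in 4 of 14 fits with 1 array left out. Over all refits the adjusted p ran from 0.0122 to 0.211.

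Ctse encodes cathepsin E, an aspartic protease of the endosome. It was between 7.35 and 8.02 in WT (median 7.60) and between 7.99 and 9.03 in K289R (median 8.40). The ranges touched at WT replicate 5 and K289R replicate 7. Its difference of 0.77 (SE 0.147), a fold of 1.71, was the largest of the list in size and did not pass (limma adjusted p = 0.0747). Pigr carries IgA through the epithelium and is the member most places from Nr5a2 in the order of tested genes. It was at 12.68 to 13.24 in WT (median 13.10) and 12.58 to 13.12 in K289R (median 13.01), with 4 WT arrays inside the K289R range and 6 K289R arrays inside the WT range. Its difference was -0.08 (SE 0.100), turning to 0.06 (SE 0.116) with the smooth muscle covariate. Lad1, of the anchoring filaments, was at 0.07. The kinase genes Ikbke and Mapkapk2, both of inflammatory signalling, were at 0.07 and -0.01.

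Both members for RNA splicing and helicases had a p under 0.001 and were higher in K289R, without passing. Snrpe, a core protein of the spliceosome's small nuclear ribonucleoproteins, was between 8.55 and 8.96 in WT (median 8.61) and between 8.88 and 9.36 in K289R (median 9.12). The overlap came from WT replicate 1 at 8.96 and K289R replicate 2 at 8.88. The difference was 0.44 (SE 0.078, limma adjusted p = 0.0565), and with 1 array left out it passed in 2 of 14 fits, those without either of these arrays, with adjusted p values from 0.0176 to 0.145 over all refits. Ddx59, a DEAD-box helicase gene 5 places from Nr5a2, was between 6.86 and 7.02 in WT (median 6.93) and between 7.02 and 7.36 in K289R (median 7.27). The genotypes were barely apart, with K289R replicate 5 lowest, and the difference of 0.30 (SE 0.055, limma adjusted p = 0.0621) did not pass. With 1 array left out it passed in 1 of 14 fits, that without this array, and over all refits the adjusted p ran from 0.0134 to 0.621.

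Ion channel and transporter members were all 3 higher in K289R, and none passed. Kcnt2, a sodium-activated potassium channel gene, was between 6.13 and 6.42 in WT (median 6.20) and between 6.40 and 6.96 in K289R (median 6.55). Its difference was 0.35 (SE 0.076, limma adjusted p = 0.129). Kcnt2 is the dimmest member, and its WT mean of 6.23 lies below the filter at 6.25, so it was tested only through its K289R arrays.

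Atp2b4, a calcium pump of the plasma membrane, was between 8.98 and 9.35 in WT (median 9.14) and between 9.15 and 9.79 in K289R (median 9.55). Its difference was 0.36 (SE 0.098, limma adjusted p = 0.306). With the mean of smooth muscle markers as a covariate the difference was 0.10 (SE 0.074), smaller than without it, and that with this covariate did not pass either. The magnesium transporter gene Slc41a1, next to Pm20d1, was at 0.04 (SE 0.088).

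Members for membrane traffic and cytoskeleton were measured in 10 of 11 cases, 2 higher and 8 lower, and none passed. Rabif, a binding partner of Rab GTPases, was between 9.44 and 9.69 in WT (median 9.54) and between 9.18 and 9.37 in K289R (median 9.29). The genotypes did not overlap. The difference of -0.27 (SE 0.051) did not pass (limma adjusted p = 0.0747), but did after quantile normalization (0.0406) and with the dividing cell mean as a covariate (0.0426), and in no other of 29 refits, where the adjusted p reached 0.319. Kif21b, a kinesin gene, was at -0.20 (SE 0.085), and Camsap2, which caps the minus ends of microtubules, at 0.21 (SE 0.094), each with an unadjusted p under 0.05. The remaining 7, which were the vesicle gene Syt2, the Rab35 activator Dennd1b, Klhl12 of COPII coat assembly, Nav1, Plekha6, Tmem9 and Shisa4, were between -0.09 and 0.04. Plekha6, a junctional protein gene, was at 9.99 to 10.16 in WT (median 10.11) and 9.80 to 10.14 in K289R (median 10.06), with a difference of -0.06 (SE 0.053).

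Members grouped under mitotic cycle, p53 and growth arrest numbered 10, 6 higher and 4 lower, and none passed. The grouping is loose, and a place in it, such as that of Ppp1r15b, is no statement of function. Nek7, a mitotic kinase that also takes part in inflammasome assembly, was between 9.33 and 9.75 in WT (median 9.51) and between 9.49 and 10.21 in K289R (median 9.89). Its difference was 0.30 (SE 0.099, limma adjusted p = 0.408), and 3 K289R arrays lay inside the WT range. Phlda3, a p53 target, was at -0.16 (SE 0.075), with an unadjusted p under 0.05. Aspm of the spindle pole was at 0.17 (SE 0.084), the cytokinesis kinesin Kif14 at 0.05, and Ube2t, a ubiquitin-conjugating enzyme of DNA crosslink repair, at -0.10. Of 7 tested dividing cell markers 6 were higher, none past the threshold, with summed intensities of 5259 to 6165 in WT and 4057 to 7315 in K289R. Ppp1r15b was at 10.90 to 11.23 in WT (median 11.08) and 10.87 to 11.20 in K289R (median 10.95), and its arrays overlapped. Its difference was -0.12 (SE 0.063). The p53 inhibitor gene Mdm4, Btg2, Nuak2 and Dstyk lay between -0.05 and 0.04.

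Of the leukocyte phosphatase members neither passed. Ptprc, or CD45, 2 places from Nr5a2 on the side of higher coordinates, was between 8.66 and 9.69 in WT (median 9.04) and between 9.11 and 10.16 in K289R (median 9.28). Its difference of 0.32 (SE 0.169, limma adjusted p = 0.609) was smaller than the SD within either genotype. The highest WT array, replicate 3, and the highest K289R array, also replicate 3, had the highest mean of T cell markers in their genotype, at 9.26 and 9.31. All 8 T cell markers and all 7 measured B cell markers were higher in K289R without any past the threshold, with summed intensities of 1892 to 5774 in WT and 1658 to 6277 in K289R for T cells. The part of T cells in the Ptprc value was not tested. Ptprc was at 0.26 (SE 0.154) with the B cell covariate and at 0.64 (SE 0.179, limma adjusted p = 0.169) with the smooth muscle covariate, and did not pass in either fit. Ptpn7 was at -0.0018 (SE 0.073).

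Matrix members, the small leucine-rich proteoglycans Fmod and Prelp, did not pass and depended on the probe set. Prelp was at 0.12 (SE 0.090) on the brighter probe set and at -0.09 (SE 0.058) on the other. Fmod was at -0.03 (SE 0.098) and 0.04 (SE 0.075). On the brighter probe sets Prelp was at 10.38 to 10.76 in WT (median 10.57) and 10.38 to 11.05 in K289R (median 10.76), and Fmod at 7.27 to 7.63 in WT (median 7.52) and 7.08 to 7.81 in K289R (median 7.46). All of these ranges overlapped. All 8 fibroblast and matrix markers were higher in K289R, 5 with an unadjusted p under 0.05, and their part in these values was not tested. Only 3 further members had a second probe set, and in Nav1 (-0.09 and -0.07) and Dstyk (0.03 and 0.02) the signs were alike. In Dennd1b they were not (0.04 and -0.04), and there the second set was below the filter. The first was at 9.40 to 9.63 in WT (median 9.54) and 9.31 to 9.82 in K289R (median 9.55). None of the 12 members with a p under 0.001 had a second probe set. The remaining group, adhesion and stem cell receptors, had Nfasc at 0.0050 (SE 0.079) and Lgr6, a receptor for R-spondins, at 0.02 (SE 0.063). Lgr6 was at 7.77 to 8.12 in WT (median 8.05) and 7.90 to 8.23 in K289R (median 7.99), and the genotypes overlapped.

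**Figure D3:**
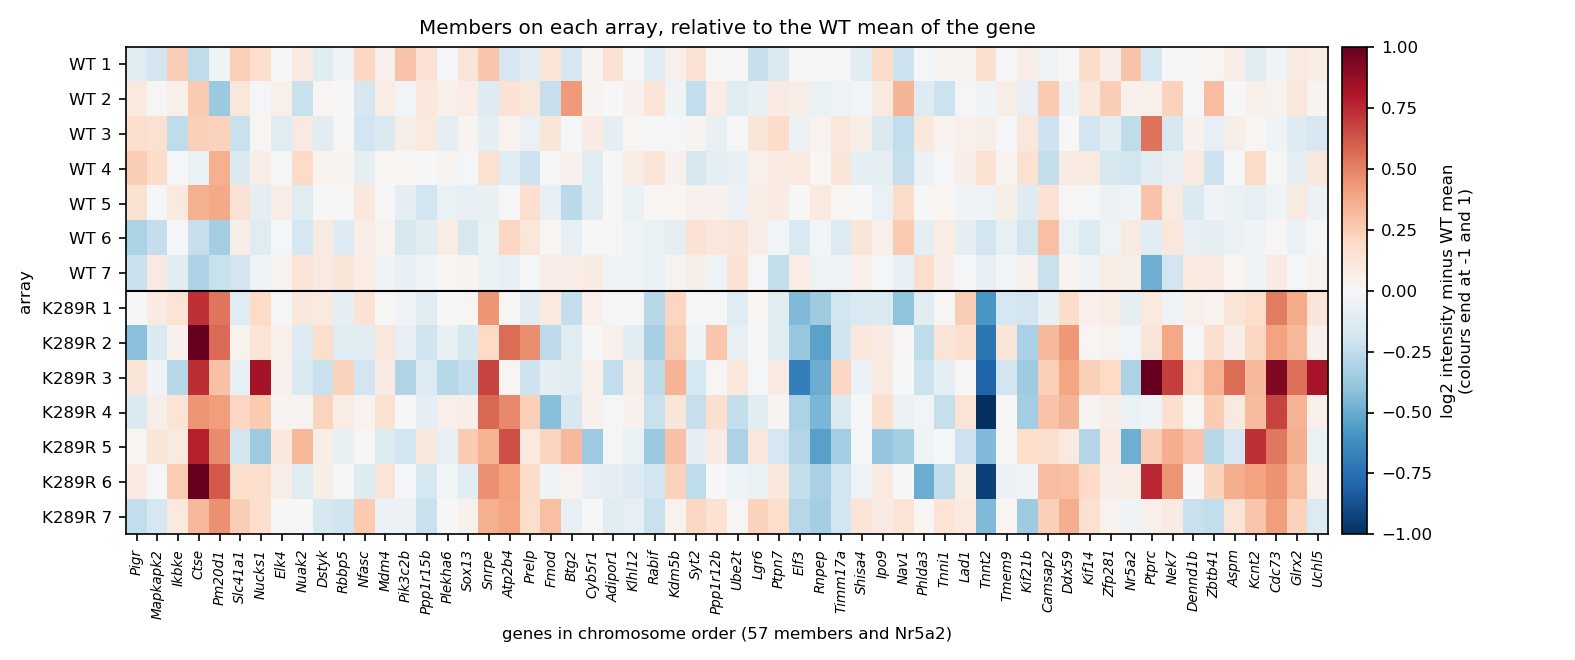
Log2 intensity of the 57 members and Nr5a2 on each of the 14 arrays, minus the WT mean of the gene, with genes in chromosome order and colours that end at -1 and 1. Columns such as Ctse, Pm20d1, Rnpep, Tnnt2 and Cdc73 run through all K289R arrays, and the row of K289R replicate 3 stands out at Nucks1, Ptprc, Nek7, Cdc73 and Uchl5.

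Arrays were then followed across members, as a description only, since these members were picked for a difference between genotypes. In the 5 members with a p under 0.001 whose genotypes overlap, no K289R array was inside the WT range for more than 2, and that array was replicate 7 with Ctse and Kdm5b. WT replicate 4 was inside the K289R range for 3 of them, Pm20d1, Kdm5b and Kcnt2. K289R replicate 3 was the highest K289R array in 18 of 57 members and the lowest in 12, and replicate 5 the highest in 10 and the lowest in 15. Without K289R replicate 3 the difference of Nek7 was 0.24 (SE 0.088), that of Ptprc 0.21 (SE 0.151) and that of Elf3 -0.33 (SE 0.051, limma adjusted p = 0.0259).

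The 84 tested genes of the window that are no members had none past the threshold and 0 with an unadjusted p under 0.001 by limma. Since every gene of the window with such a p was put in the list, that count and any smaller difference than in the members follow from the choice. Their median size of difference was 0.059, and that of all genes tested was 0.057. An unadjusted p under 0.05 was found in 7 of them (8.33%), 4 higher and 3 lower, against 8.48% of all genes. The lowest p was that of Gm15850, 12 places from Nr5a2, at -0.27 (SE 0.068, limma adjusted p = 0.250). At the limit of the window, Mgat5 just inside was at -0.12 (SE 0.067) and Nckap5 just outside at -0.04 (SE 0.075) on the side of lower coordinates. On the other side Rgs1 just inside was at 0.15 (SE 0.170) and Pla2g4a just outside at 0.14 (SE 0.109).

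Refits with other settings left the direction of the 12 members as it was, which their choice by a small p on the same arrays makes likely. All refits used the same arrays or a part of them, so counts of refits that passed are no independent support. Rnpep and Cdc73 passed in 28 of 29 refits, Tnnt2 in 27 and Glrx2 in 20. Elf3 passed in 12, Snrpe in 8 and Rabif in 2, and Ddx59 in 2 of 28. Ctse, Pm20d1, Kdm5b and Kcnt2 passed in 0 (lowest adjusted p by limma 0.0524, 0.0958, 0.0887 and 0.0804), and all 4 had an unadjusted p under 0.001 with all arrays. Over the refits Tnnt2 ran from -0.77 to -0.65, Rnpep from -0.46 to -0.40, Cdc73 from 0.50 to 0.66 and Ctse from 0.67 to 0.86.

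**Figure D4:**
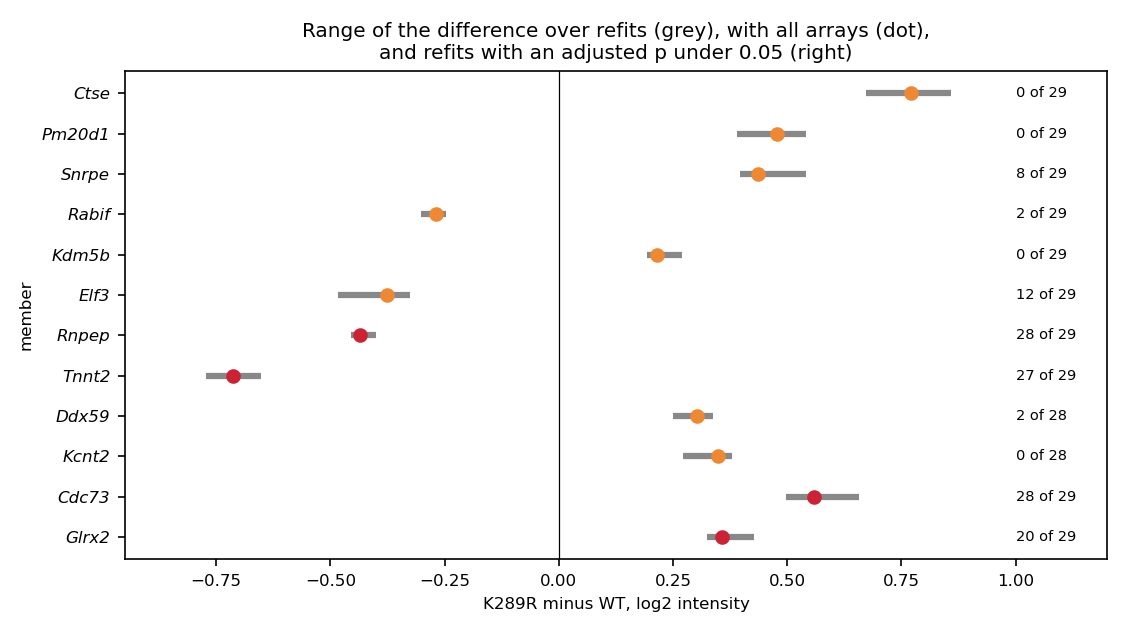
Difference between genotypes (K289R minus WT, log2 intensity) of the 12 members with an unadjusted p under 0.001, as a dot with all arrays (red where the adjusted p was under 0.05, orange elsewhere) and a grey bar for the range over refits, with the number of refits that passed at the right. No bar reaches 0, which the choice of these members by p on the same arrays makes likely. Rnpep, Tnnt2, Cdc73 and Glrx2 passed in 20 to 28 refits, all of them on the same arrays or a part of them.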

How the data were processed

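Jejunal RNA of 14 mice was measured, 7 WT and 7 K289R by the titles and genotype labels. The deposited table holds intensities of 41345 probe sets on a linear scale (7.40 to 20050.3), made with Affymetrix Expression Console per the submitters' processing notes. How arrays were summarised and scaled was not given in the sources used here. Array medians were near equal (168 to 174). Where arrays are put on a common scale, a shift of all genes is lost. Background left in the values would compress differences of dim genes. Values were log2-transformed and not normalized further.

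Gene symbols came from the annotation of the platform (23521 with 1 symbol, 1814 with several and left out, 16010 unnamed here). A gene was its probe set with the highest mean, and 18010 of 22180 genes had a mean over all arrays at or above log2 6.25, the 25th percentile over probe sets. limma 3.58.1 (lmFit and eBayes, R 4.3.3) tested them, 2-sided and without covariates. The fit was also run on simulated data with independent normal noise for each gene. Shifts shared between genes were not simulated, so the error rate on these arrays was not checked. Gene positions from assembly GRCm38.p6 served only for order and neighbourhood, since the array's own build is unknown here. Promoter coordinates are those of the sequence table.

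Members and lists were chosen with earlier results of these data known. Given with their values were members with an adjusted p under 0.05, an unadjusted p under 0.001, no overlap of genotypes or probe sets of opposite sign, then the member of each role group with the smallest p and with the highest mean. The other members named were added after their values were seen. Alternatives were other normalizations, filters, probe set rules and eBayes options, a pseudocount of 16, array weights, a replicate block, marker list means as covariates, and arrays left out.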

Additional observations from a re-analysis of the deposited data

Results flagged for a closer look

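In groups of 7 arrays, 12 of 116 groups examined (57 members and Nr5a2, by genotype) held an array whose gap to its nearest neighbour was a larger share of the group's range than Dixon's 95% limit. Chance flags about 1 in 20 groups of normal values, or 5.8 here. The groups share the same 14 arrays and are not independent, so flags on 1 array are not separate events. Whether 12 exceeds chance was not tested. K289R replicate 3 accounts for 5: it was high for Timm17a at 9.84 (next 9.49), Zfp281 at 8.57 (next 8.45) and Uchl5 at 10.47 (next 9.77), and low for Plekha6 at 9.80 (next 10.01) and Ikbke at 9.44 (next 9.77). K289R replicate 5 accounts for 4, high for Ppp1r15b at 11.20 (next 10.99) and Kcnt2 at 6.96 (next 6.63) and low for Cyb5r1 at 8.11 (next 8.40) and Kif14 at 7.20 (next 7.51). The others were Camsap2, low on K289R replicate 1 at 8.47 (next 8.71), Adipor1, high on WT replicate 1 at 11.04 (next 10.90), and Tnni1, low on WT replicate 2 at 7.65 (next 7.85). Over the 14 arrays, K289R replicate 3 had the highest mean of T cell markers (9.31) and the lowest of smooth muscle markers (10.75). K289R replicate 5 had the highest mean of smooth muscle markers (11.30) and the lowest of dividing cell markers (8.94, next 9.29). The part of these in the values above was not tested.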

How the results depend on the processing

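Direction held for the 12 members with a p under 0.001 in every refit run. They were picked by that p on the same arrays, so a change of sign was unlikely from the start. The count of members past the threshold was 4 with all arrays, 7 after quantile normalization, 7 with array weights and 3 to 6 with 1 array left out, and the other settings without a block gave 3 to 6. Over all genes it was 8, and 14 with array weights, 5 with the B cell mean as a covariate and 5 without the arrays with Fabp6 above 8. With 1 array left out it ran from 4 (leaving out WT 3, WT 4 or K289R 4) to 14 (without K289R replicate 5), with 5 without K289R replicate 7.

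With the replicate number as a block, 0 members and 0 genes passed limma's threshold. The lowest adjusted p was 0.0539, that of Rnpep, Tnnt2 and Cdc73. An unadjusted p under 0.05 was found in 19 of 57 members and 1465 of 18010 genes. One under 0.001 was found in 10 members and 82 genes. The list was chosen with p values of these arrays known. The numbers are not shown to pair the mice. After the genotype mean of each gene was subtracted, correlations of same-numbered WT and K289R arrays ran from -0.151 to 0.169. By these remainders, 0 of 14 arrays correlated best with their own number in the other genotype. The difference of Nr5a2 kept its sign in 29 refits (-0.18 to -0.077) and passed in 0.

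Small differences changed sign, and the cause was not tested. Lgr6 was at -0.011 with array weights, -0.042 without the arrays with Fabp6 above 8 and -0.014 to 0.046 with 1 array left out. Fmod was at 0.0080 with the mean over probe sets and between -0.084 and 0.037 with 1 array left out. Adjusted for smooth muscle markers, Prelp was at -0.057 and Pigr at 0.062. Among other genes near Nr5a2, 1 of 166 had a p under 0.001 when the distance was 20 Mb, Insig2, and 0 did at 5 Mb. That 0 follows from the choice of the list. Insig2 was higher in K289R and also passed the adjusted threshold. Within 20 Mb, members included, 3 of 223 tested genes passed higher and 2 lower, against 8 of 18010 over all genes tested (0.0444%). All of them but Insig2 are members, which were chosen with these p values known. The count is thus no independent measure of the neighbourhood. The files give no detection call, so how far dim members such as Kcnt2 lie above background is unknown.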
